A study of Mus musculus with 8 samples.

Results

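The core factors of mRNA 3′ end cleavage are described here through 7 genes: Cstf2, Wdr33, Fip1l1, Cpsf2, Cpsf6, Cpsf7 and Pcf11. They were picked by gene symbol, with no cutoff on a measured value, from the 10060 genes that the deposited tables list. Earlier results of these data were known when they were chosen. All 7 stand in the table of 7951 genes whose 3′-most exon has a proximal and a distal cleavage site. All but Cpsf2 also stand, as 6 members, in the table of 6147 genes that sets a site in an upstream exon against the 3′-most exon.

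The libraries come from total brain of mice aged 50 days, of which 5 carried Cstf2 D50A and 3 were wild-type littermates, on a C57BL/6NCrl background and untreated. D50A exchanges an aspartate for an alanine where CSTF2 contacts RNA, in its RNA recognition motif. The labels give neither sex nor zygosity, although Cstf2 is X-linked. Every cell of the brain carries the genotype of its animal, so the genotype singles out no cell type. Whether all cells of a mutant express the D50A allele is not known from the labels. The reads come from the 3′ ends of polyadenylated mRNA, and the question addressed was whether the mutant animals choose other ends than wild type for the transcripts of the machinery itself.

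Cleavage before polyadenylation is carried out by a complex of several modules. The cleavage and polyadenylation specificity factor, CPSF, reads the polyadenylation signal and holds the nuclease, while the cleavage stimulation factor, CstF, binds the U- and GU-rich sequence downstream of the cut. Cleavage factor Im binds UGUA motifs upstream and is known for promoting distal sites, and cleavage factor IIm links cleavage to the end of transcription.

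The libraries held between 9616953 and 17530761 reads in the within-exon table and between 7075383 and 13145966 in the upstream-exon table. In each genotype 1 library lay nearest to the other genotype more often than the rest, although some library has to be nearest in every pair. Among the 7876 pairs tested within the exon, wild type 3 was the wild-type library nearest to the D50A mean share in 55.2%, and D50A 5 was the mutant nearest to the wild-type mean in 39.9%. Wild type 1 and 2 were nearest in 20.6% and 24.2%, and D50A 1 to 4 in 10.3% to 20.8% each. For gene levels in the same table the figures were 66.2% for wild type 3 and 42.7% for D50A 5. There wild type 1 and 2 had 14.1% and 19.7%, and D50A 1 to 4 had 9.05% to 25.0%. Cerebellar granule cell markers, of which 10 of 12 are in the table and none is at 0, summed to 539, 513, 562 and 634 CPM (counts, here scaled by the library's total in the table and elsewhere also by TMM factors) in D50A 1 to 4 and to 2172 CPM in D50A 5, against 2710, 2145 and 2094 CPM in wild type 1 to 3. D50A 5 thus stood at the marker level of wild type, and the part of cerebellar content in the results was not tested beyond the fits given below. Neuronal markers, 8 of 8 listed, summed to between 16808 and 18722 CPM in D50A and between 9699 and 16577 CPM in wild type, without overlap. Wild type 1 alone held the low end, and the other wild types had 14947 CPM or more. Astrocyte markers, 3 of 7 listed, summed to between 2945 and 3549 CPM in D50A and between 3664 and 3749 CPM in wild type, also without overlap. The part of neuronal and astrocyte content in the results was not tested. The counts cannot check the genotype labels, and by cerebellar markers D50A 5 lay with wild type while wild type 3 lay with the other wild types.

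Within the 3′-most exon, the reads of Wdr33 and Cpsf7 lay more at the distal site in the D50A mean, and those of Pcf11 more at the proximal site. No member passed the test over all pairs, and the genotypes overlapped in every member. The test was edgeR's quasi-likelihood test of the site-by-genotype interaction, with a term for each library, and p-values were adjusted by Benjamini-Hochberg over all 7876 pairs. At an unadjusted p under 0.05, 2 of the 7 members had relatively more distal reads (Wdr33 and Cpsf7) and 1 had fewer (Pcf11), while 0 passed an adjusted p of 0.05 by edgeR or by DESeq2. Among all tested pairs, 8.67% and 4.25% pointed to the distal and the proximal site at that unadjusted level and 0 passed the adjusted one by edgeR or limma, while DESeq2 called 22. The genotypes did not overlap in 0 of 7 members, where 4.15% of all pairs did not overlap. The median log2 change was 0.35 over the 7 members and 0.12 over all pairs.

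**Figure D1:**
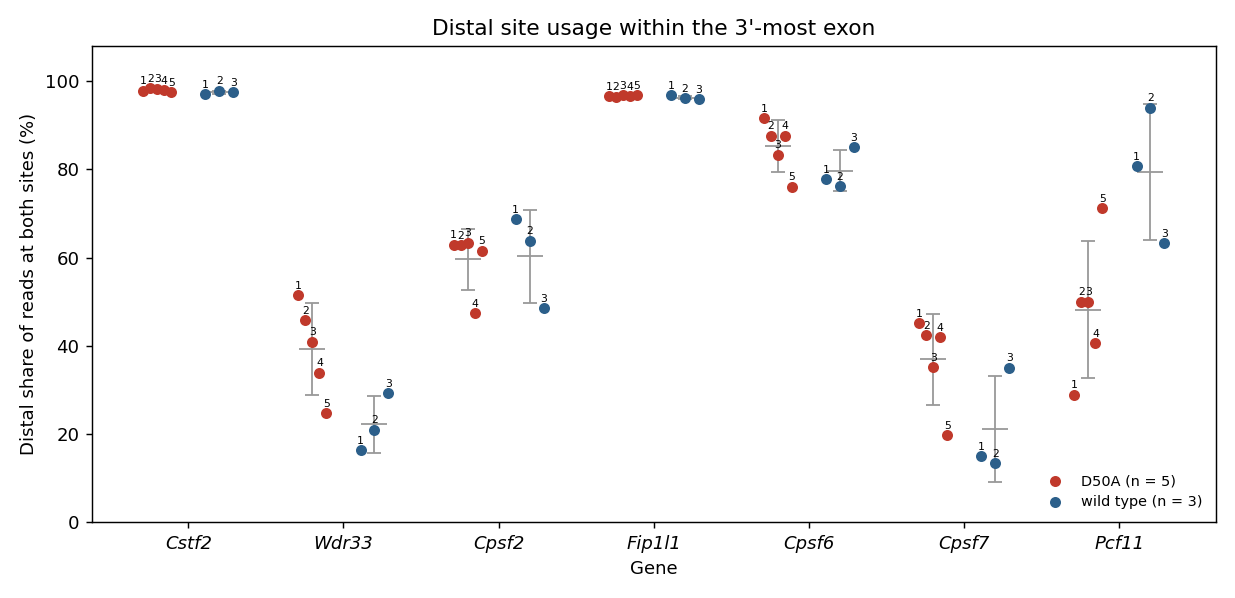
Distal share (percent of the reads at both sites) of the 7 genes in each library, with D50A in red and wild type in blue. Numbers name the libraries and grey bars give mean and SD. In Wdr33, Cpsf7 and Pcf11 the library D50A 5 lies next to the wild types, and wild type 3 next to the mutants.

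Cstf2 encodes the mutated RNA-binding subunit of CstF itself. Its sites lie 2361 bases apart, at positions 130619000 and 130621361 (build mm9, chromosome not stated in the tables). The distal site held 97.8%, 98.4%, 98.3%, 97.9% and 97.6% of its reads in D50A 1 to 5, against 97.1%, 97.9% and 97.5% in wild type 1 to 3. These shares rest on 3359 to 6631 reads per library, and the 95% Wilson interval of the lowest, wild type 1, ran from 96.4% to 97.6%. The 2 highest shares were mutant and the lowest was wild type, with overlap between them, and the log2 change in usage was 0.35 (SE 0.199, edgeR adjusted p = 0.434). The proximal site itself stood at 7.38 ± 1.84 CPM in D50A and 9.21 ± 1.61 CPM in wild type (SD, n = 5 and 3; log2 change -0.32, SE 0.228, edgeR adjusted p = 0.485).

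The level of Cstf2 mRNA was equal in the means of both genotypes. It measured 8.51, 8.50, 8.52, 8.33 and 8.74 log2 CPM in D50A 1 to 5, against 8.55, 8.63 and 8.38 log2 CPM in wild type 1 to 3. The highest value was that of D50A 5 and the lowest that of D50A 4, so wild type lay within the mutant range. The log2 change was -9.4e-05 (SE 0.124, edgeR adjusted p = 1), where among the 7 members only Cpsf7 had a smaller SE of its level in this table. An amino acid exchange need not alter this count, so the level does not check the labels.

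Wdr33 encodes the CPSF subunit that contacts the polyadenylation signal. Its sites lie only 75 bases apart. The distal share was 51.5%, 45.7%, 40.9%, 33.9% and 24.75% in D50A 1 to 5, against 16.4%, 21.0% and 29.2% in wild type 1 to 3. Of the mutants, 4 lay above all wild types, while D50A 5 lay below wild type 3. The means were 39.4 ± 10.4% in D50A and 22.2 ± 6.49% in wild type, and the log2 change of 1.16 (SE 0.402) had an edgeR adjusted p of 0.38.

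The difference in the Wdr33 share lay more in the proximal than in the distal site. That site measured 7.57, 8.27, 8.05, 16.3 and 20.3 CPM in D50A 1 to 5, against 17.7, 20.8 and 19.5 CPM in wild type 1 to 3. D50A 1 to 3 stood low, and D50A 4 and 5 stood near or within the wild-type range. The log2 change of the proximal site was -0.68 (SE 0.327, edgeR adjusted p = 0.38) and that of the distal site 0.32 (SE 0.266, edgeR adjusted p = 0.545). The upstream-exon table counts more last-exon reads of Wdr33 than its 2 listed sites hold. These sites made up 37.6%, 38.3%, 35.3%, 54.5% and 51.8% of the reads of that exon in D50A 1 to 5, against 49.7%, 53.2% and 56.7% in wild type 1 to 3. Over all libraries this was 48.3%, against a median of 95.5% over the genes listed in both tables, and only 0.768% of those genes had a lower value. The distal share of Wdr33 thus describes only some of its last-exon reads. The same limit holds for Cpsf6 and Pcf11, whose listed sites held 61.2% and 70.6% of last-exon reads over all libraries. Of the genes listed in both tables, 3.67% had a lower value than Cpsf6 and 8.96% a lower value than Pcf11. In Cstf2, Fip1l1 and Cpsf7 the listed sites held 99.9%, 98.5% and 95.5%.

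Fip1l1 encodes the CPSF subunit that binds U-rich sequence and contacts the poly(A) polymerase. Within the last exon its usage hardly varied: the distal share ran from 96.5% to 96.8% in D50A and from 95.9% to 96.8% in wild type. The libraries of each genotype differed by less than counting error, with a chi-square per degree of freedom of 0.0681 in D50A and 0.399 in wild type. The log2 change was 0.18 (SE 0.18, edgeR adjusted p = 0.635).

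What varied in Fip1l1 was the amount of reads at those last-exon sites. The distal site, at position 74994815 and 2637 bases beyond the proximal one, measured 187.5, 159, 118, 177 and 69.6 CPM in D50A 1 to 5, against 60.1, 61.3 and 136 CPM in wild type 1 to 3. D50A 1 to 4 and wild type 3 were high, and D50A 5 with wild type 1 and 2 were low, so the values did not follow the genotype labels. Summed over both sites the level was 7.11 ± 0.58 log2 CPM in D50A and 6.37 ± 0.679 in wild type (log2 CPM ± SD, n = 5 and 3), a log2 change of 0.71 (SE 0.366, edgeR adjusted p = 0.355). Endothelial and pericyte markers (3 of 6 listed are in the table and none is at 0) were high and low in the same libraries, with 567, 491, 313, 618 and 218 CPM in D50A 1 to 5, against 187, 170.9 and 410 CPM in wild type 1 to 3. Their part in the Fip1l1 level was not tested.

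Cpsf2 encodes the pseudo-nuclease partner within CPSF. Its sites lie 1543 bases apart. The distal share was 62.9%, 62.9%, 63.4%, 47.3% and 61.6% in D50A 1 to 5, against 68.7%, 63.8% and 48.5% in wild type 1 to 3. One library of each genotype, D50A 4 and wild type 3, stood some way below the rest of its group. The log2 change in usage was -0.05 (SE 0.32, edgeR adjusted p = 0.955), an interval wide enough to hold changes in either direction.

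The distal site of Cpsf2 was the only one of the 14 sites of the members at which the genotypes did not overlap. It measured 72.4, 66.9, 63.7, 49.7 and 46.6 CPM in D50A 1 to 5, against 39.6, 41.2 and 45.4 CPM in wild type 1 to 3. The lowest mutant, D50A 5, and the highest wild type, wild type 3, lay close to each other. The log2 change was 0.51 (SE 0.177, edgeR adjusted p = 0.375), and the genotypes did not overlap in 4.6% of all 15752 tested sites. The proximal site overlapped between genotypes, at 40.7 ± 9.58 CPM in D50A and 29.8 ± 16.1 CPM in wild type (SD, n = 5 and 3; edgeR adjusted p = 0.475). For the sum of both sites the log2 change was 0.47 (SE 0.189, edgeR adjusted p = 0.343).

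**Figure D2:**
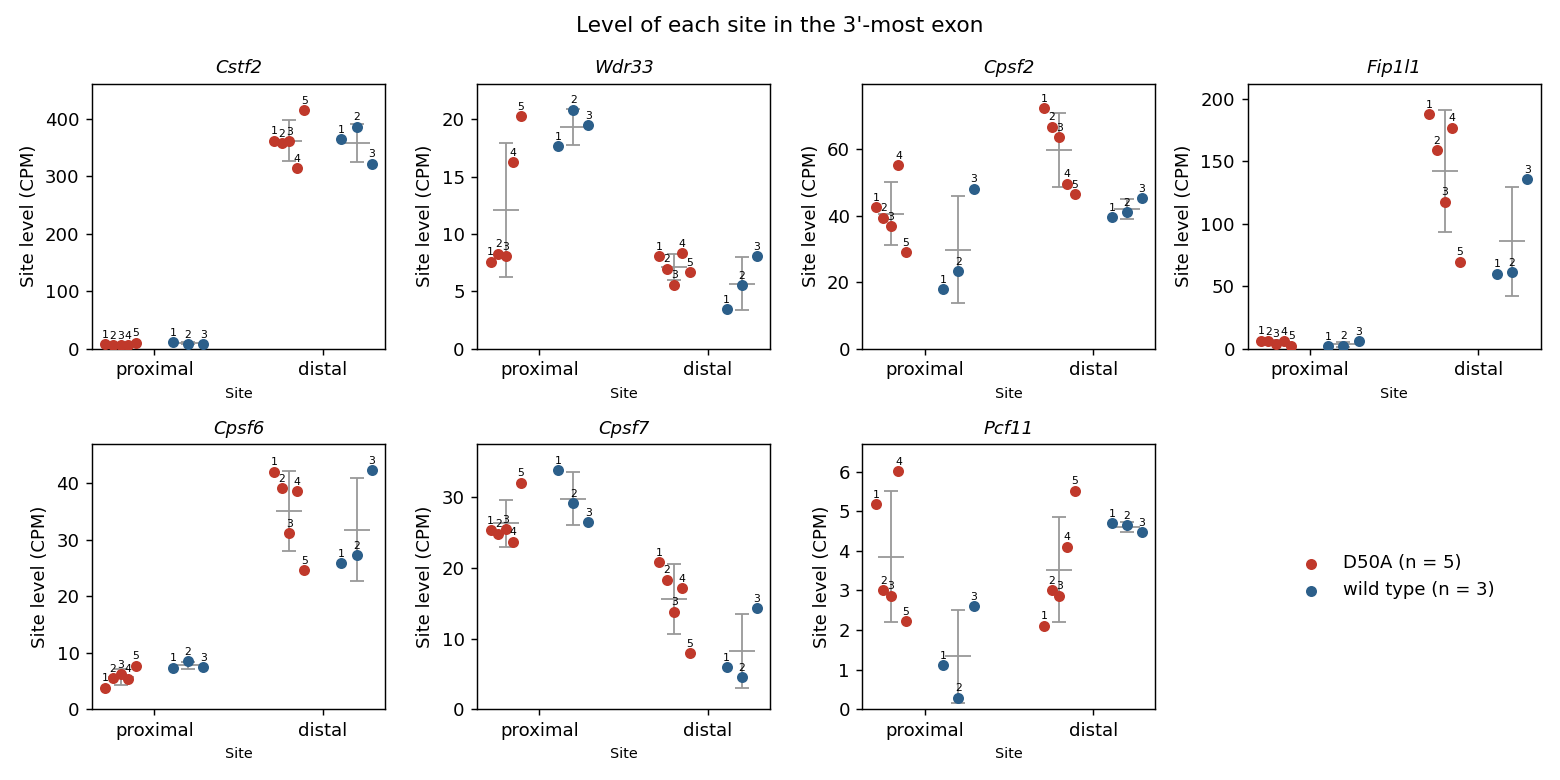
Level of the proximal and the distal site of each gene in CPM per library, D50A in red and wild type in blue. Numbers name the libraries and grey bars give mean and SD. The distal site of Cpsf2 separates the genotypes by a narrow margin, and the distal sites of Fip1l1 and Cpsf7 are low in D50A 5 and wild type 1 and 2.

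Cpsf6 and Cpsf7 encode the large subunits of cleavage factor Im, which bring an arginine- and serine-rich domain to the complex. The sites of Cpsf6 are 4638 bases apart, farther than in 93.7% of all pairs. Its distal share was 91.6%, 87.7%, 83.4%, 87.6% and 76.1% in D50A 1 to 5, against 77.9%, 76.2% and 85.0% in wild type 1 to 3. D50A 5 had the lowest share of all, and wild type 3 exceeded D50A 3 and 5. The log2 change was 0.61 (SE 0.38, edgeR adjusted p = 0.454), and the level hardly differed at 5.34 ± 0.205 log2 CPM in D50A and 5.30 ± 0.313 in wild type (log2 CPM ± SD, n = 5 and 3; log2 change 0.03, SE 0.174, edgeR adjusted p = 0.919).

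In Cpsf7 the sites lie 73 bases apart, at 10622152 and 10622225. The distal share was 45.1%, 42.5%, 35.2%, 41.9% and 19.8% in D50A 1 to 5, against 14.9%, 13.5% and 35.1% in wild type 1 to 3. D50A 1 to 4 lay above all wild types, D50A 3 only just, while D50A 5 lay near wild type 1 and 2. The means were 36.9 ± 10.2% in D50A and 21.1 ± 12.1% in wild type, with a log2 change of 1.21 (SE 0.499, edgeR adjusted p = 0.38). That change turned to -0.16 with the cerebellar marker mean as a further term, which nearly follows genotype outside D50A 5.

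Of the 2 sites of Cpsf7, the distal one varied more between libraries. It measured 20.8, 18.3, 13.8, 17.1 and 7.92 CPM in D50A 1 to 5, against 5.92, 4.52 and 14.3 CPM in wild type 1 to 3, with a log2 change of 0.92 (SE 0.402, edgeR adjusted p = 0.375). The proximal site varied less, at 26.3 ± 3.3 CPM in D50A and 29.8 ± 3.69 CPM in wild type (SD, n = 5 and 3; edgeR adjusted p = 0.563). The summed level of Cpsf7 was 5.39 ± 0.0832 log2 CPM in D50A and 5.26 ± 0.151 log2 CPM in wild type (log2 change 0.13, SE 0.121, edgeR adjusted p = 0.553).

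Pcf11 encodes the subunit of cleavage factor IIm that binds the carboxy-terminal domain of RNA polymerase II and acts in termination. In human cells, an early polyadenylation site in its own gene is known to limit the full-length transcript. Its last-exon sites are 799 bases apart, at 99792767 and 99791968. The distal share was 28.9%, 50.0%, 50.0%, 40.6% and 71.3% in D50A 1 to 5, against 80.8%, 94.0% and 63.2% in wild type 1 to 3. D50A 1 to 4 lay below all wild types, and D50A 5 lay above wild type 3. The means were 48.2 ± 15.6% in D50A and 79.3 ± 15.4% in wild type.

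The log2 change of Pcf11 usage, -2.15 (SE 0.714, edgeR adjusted p = 0.38), was the largest in size among the 7 members in either table. It rests on few reads: 52 to 143 per library over both sites, and only 10, 5 and 32 at the proximal site in wild type 1 to 3. The 95% Wilson interval of the share ran from 19.96% to 40.0% in D50A 1 and from 86.7% to 97.4% in wild type 2. These intervals cover counting error only. In CPM, the proximal site stood at 5.18, 3.0, 2.87, 6.01 and 2.22 in D50A 1 to 5, against 1.12, 0.297 and 2.60 in wild type 1 to 3, a log2 change of 1.56 (SE 0.572, edgeR adjusted p = 0.375). D50A 1 and 4 were the highest, and D50A 5 lay below wild type 3.

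The shares of 4 members followed one another across the 8 libraries. Pearson's r of the log2 distal over proximal ratio was 0.92 between Cpsf6 and Cpsf7, 0.90 between Cpsf7 and Wdr33 and 0.87 between Cpsf6 and Wdr33. Pcf11 ran the other way, with r of -0.93 to Cpsf7, -0.87 to Cpsf6 and -0.84 to Wdr33. These values describe 8 libraries, in which both sites share the library's depth and tissue content. In all 4 members D50A 5 and wild type 3 were the libraries of their genotype nearest to the other genotype's mean. Among the 7376 pairs averaging 50 reads or more, the ratio most like that of Cpsf7 belonged to Lrrc7 and Cds2 (r of 0.995 each), and that most like Wdr33 to Tmx1, Rftn2 and Clk1 (r from 0.989 to 0.995). For Pcf11 they were Zfp318, Ptcd3 and A830010M20Rik (r from 0.972 to 0.989), for Cpsf6 Gpn1, Kif3b and Uqcrfs1 (r from 0.985 to 0.996), and for Cpsf2 Khdrbs3, Asb1 and Ikbkg (r from 0.964 to 0.992). The level of Fip1l1 was matched most closely by Tmbim6, Pcdh7 and Dzank1 (r from 0.997 to 0.998), and that of Cstf2 by Dnajb6, Tbcc and Dis3l2 (r from 0.967 to 0.984). Such close matches are the highest among all pairs or genes searched over 8 libraries and carry no test.

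Between an upstream exon and the 3′-most exon, Fip1l1 was the member that differed most, with more of its reads in the 3′-most exon in the D50A mean. No member passed the test over 6001 pairs. By edgeR 0 of 6 passed the adjusted threshold, as did 0 of all pairs, while DESeq2 called 5 pairs and 0 members. At an unadjusted p under 0.05, 1 of the 6 (Fip1l1) had relatively more reads in the 3′-most exon and 0 had fewer, where 10.4% and 3.63% of all tested pairs did so. The genotypes overlapped in all 6, where 5.88% of pairs did not overlap. An end in an upstream exon often changes the carboxy-terminal part of the protein.

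The 3′-most exon held 94.9%, 92.9%, 90.4%, 92.9% and 76.8% of the Fip1l1 reads in D50A 1 to 5, against 72.6%, 73.3% and 89.2% in wild type 1 to 3. D50A 1 to 4 lay above all wild types, wild type 3 lay close to them, and D50A 5 lay near wild type 1 and 2. The means were 89.6 ± 7.34% in D50A and 78.4 ± 9.41% in wild type (SD, n = 5 and 3). The log2 change was 1.37 (SE 0.521, edgeR adjusted p = 0.301). Without D50A 5 it was 1.75 with an edgeR adjusted p of 0.0335, the only alternative that called a member (adjusted p from 0.0335 to 1 over the alternatives of this value). In this share D50A 5 and wild type 3 are the libraries of their genotype nearest to the other genotype's mean. Leaving out either one therefore widens the difference by construction. The fit without D50A 5 called 236 of all tested pairs, so the call is not particular to Fip1l1. In the fit without D50A 5 every mutant has low and every wild type high cerebellar marker levels, so that genotype and cerebellar content cannot be told apart. Without wild type 3 the log2 change was 1.90 (edgeR adjusted p = 0.0579) and without wild type 1 it was 1.08, and with the cerebellar marker mean as a further term it was -0.41 (edgeR adjusted p = 1). In the fit with the marker term, D50A 5 alone among the mutants keeps that term apart from genotype.

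Both ends of Fip1l1 varied. The upstream exon measured 14.1, 17.1, 17.6, 19.0 and 29.0 CPM in D50A 1 to 5, against 30.4, 31.6 and 23.1 CPM in wild type 1 to 3. The 3′-most exon measured 263, 224, 165.2, 248 and 95.9 CPM in D50A 1 to 5, against 80.5, 86.8 and 191 CPM in wild type 1 to 3. The 3 libraries highest in the upstream exon, D50A 5 and wild type 1 and 2, were the lowest in the 3′-most exon. These single-end values of the upstream-exon table were not tested.

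**Figure D3:**
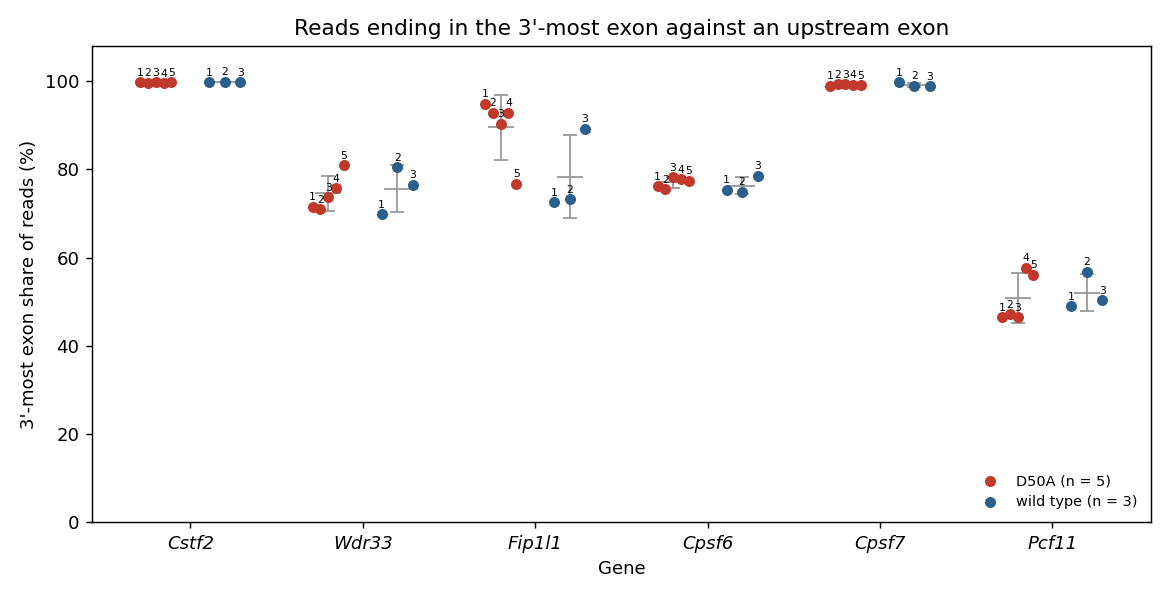
Share of reads in the 3′-most exon against an upstream exon (percent) for the 6 genes of the second table, in each library, D50A in red and wild type in blue. Numbers name the libraries and grey bars give mean and SD. Fip1l1 spreads from 72.6% to 94.9%, while the genotypes lie over each other in the other 5 genes.

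Pcf11 ended almost evenly in the upstream and the 3′-most exon. The 3′-most exon held 46.5%, 47.1%, 46.5%, 57.7% and 56.1% of its reads in D50A 1 to 5, against 49.0%, 56.8% and 50.4% in wild type 1 to 3. Wild type lay within the mutant range, and the log2 change was -0.07 (SE 0.285, edgeR adjusted p = 0.924). Its summed level here averaged 4.75 ± 0.127 log2 CPM in D50A and 4.46 ± 0.257 in wild type (SD, n = 5 and 3; log2 change 0.28, SE 0.149, edgeR adjusted p = 0.348).

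Cpsf6 and Wdr33 had similar shares in both genotypes. Cpsf6 stood at 77.0 ± 1.15% in D50A and 76.3 ± 1.97% in wild type (log2 change 0.06, SE 0.209, edgeR adjusted p = 0.924), and Wdr33 at 74.6 ± 4.02% in D50A and 75.6 ± 5.37% in wild type (log2 change -0.09, SE 0.273, edgeR adjusted p = 0.902). The summed level of Wdr33 in this table was 6.26 ± 0.109 log2 CPM in D50A and 6.37 ± 0.0306 in wild type (log2 CPM ± SD, n = 5 and 3; log2 change -0.11, SE 0.106). In the within-exon table the same gene had a log2 change in level of -0.39 (SE 0.247, edgeR adjusted p = 0.402).

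The upstream exon was a rare end in Cstf2 and Cpsf7. It held 11, 14, 8, 21 and 8 reads of Cstf2 in D50A 1 to 5, against 6, 8 and 10 reads in wild type 1 to 3, beside 3361 to 6637 in the 3′-most exon. The highest count was that of D50A 4 and the genotypes overlapped, with a log2 change of -0.64 for the 3′-most over the upstream exon (SE 0.411, edgeR adjusted p = 0.481). Cpsf7 had between 1 and 6 upstream reads in a library, so the ratio is imprecise (log2 change 0.10, SE 0.487, edgeR adjusted p = 0.939).

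**Figure D4:**
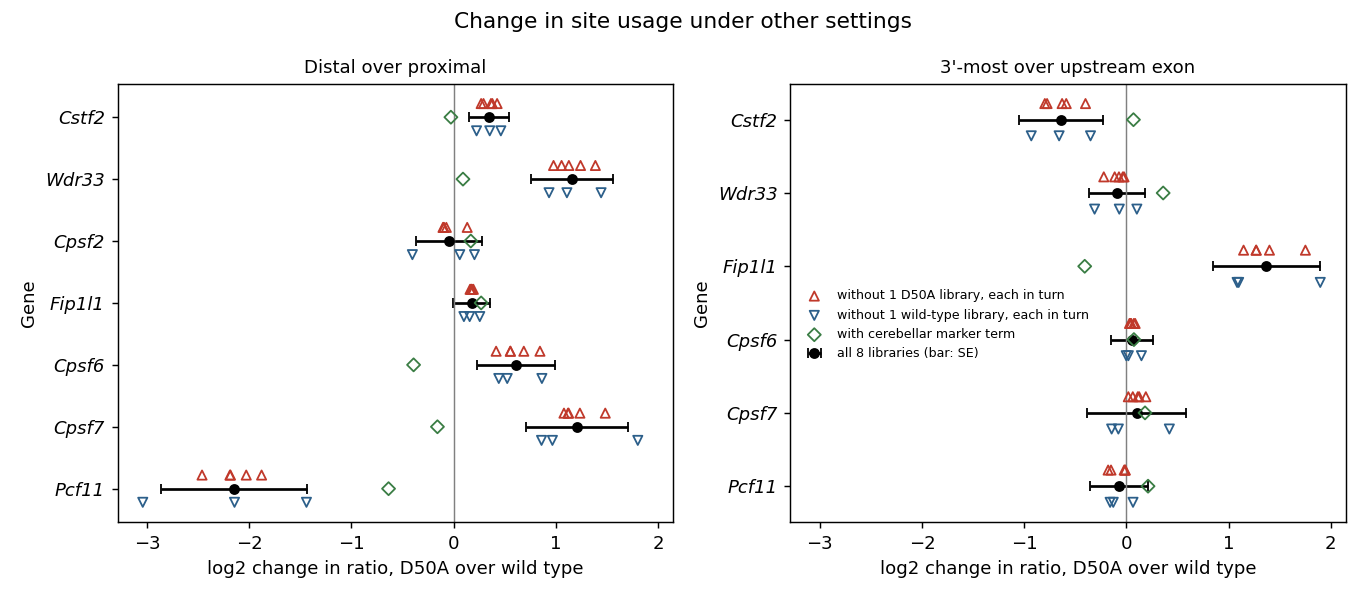
Log2 change of the ratio of both ends, D50A over wild type, for the distal over the proximal site (left) and the 3′-most over the upstream exon (right), with all 8 libraries (black, bar: SE), without 1 D50A library (red) or 1 wild-type library (blue) in turn, and with the cerebellar marker mean as a term (green). Without single libraries Pcf11 runs from -3.04 to -1.44 and Cpsf7 from 0.86 to 1.80, and with the marker term Cpsf6, Cpsf7 and Cstf2 (left) and Fip1l1 (right) turn below 0.

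With each library left out in turn, the main differences within the exon kept their direction and 0 members were called by edgeR. The log2 change of Pcf11 ran from -3.04 without wild type 3 to -1.44 without wild type 2. That of Cpsf7 ran from 0.86 without wild type 2 to 1.80 without wild type 3, and that of Wdr33 from 0.93 without wild type 1 to 1.44 without wild type 3. Wild type 3 is the wild type nearest to the D50A mean in these genes, so that leaving it out widens the difference by construction. With the cerebellar marker mean as a further term the log2 change was -0.64 for Pcf11, 0.09 for Wdr33 and -0.16 for Cpsf7. In that edgeR fit 0 of the 7 members and 127 of all 7876 pairs lay at an unadjusted p under 0.05. The marker mean was 4.32 to 4.36 log2 CPM in D50A 1 to 4, 6.64 in D50A 5 and 6.61 to 7.05 in wild type. The term thus nearly follows genotype outside D50A 5, and the fit can hardly tell genotype and cerebellar content apart. Over all alternatives the adjusted p of the usage changes of Pcf11, Wdr33 and Cpsf7 ran from 0.0624 to 1.

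In gene level, 0 of 7 members passed edgeR's test in the within-exon table and 0 of 6 in the upstream-exon table, by DESeq2 likewise. Over all genes edgeR called 0 in either table, while DESeq2 called 26 in the within-exon and 0 in the upstream-exon table. The genotypes overlapped in level in every member, where 4.76% and 4.78% of all genes of these tables did not overlap. At an unadjusted p under 0.05, 1 member was higher in D50A (Cpsf2) and 0 lower in the first table, where 7.29% of all genes were higher and 7.05% lower. In the other 0 were higher or lower, where 7.6% and 7.47% of all genes were. Of the 14 single sites of the members, 3 were higher at that level (the proximal site of Pcf11 and the distal sites of Cpsf2 and Cpsf7) and 0 lower, against 6.98% and 6.22% of all sites. In bulk tissue, fewer cells of a type and less RNA per cell cannot be told apart in such levels.

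Among 35 other genes of the machinery, chosen with earlier results of these data known, 18 were tested within the exon and 16 between exons. Of these, 0 passed edgeR's test in usage or level, as did 0 of all tested pairs and genes. Within the exon 1 had relatively more distal reads at an unadjusted p under 0.05 and 0 had fewer, where 8.67% and 4.25% of all pairs did so, and the median log2 change was 0.01 beside 0.12 over all pairs. The 1 was Rprd2, which belongs to a family that binds the polymerase's carboxy-terminal domain, with a distal share of 24.1 ± 8.29% in D50A and 10.8 ± 4.22% in wild type (log2 change 1.36, SE 0.451, edgeR adjusted p = 0.38). D50A 5 (10.6%) again lay among the wild types. Next by p came the tail-binding protein gene Pabpn1 (log2 change 0.64), the U1 snRNP gene Snrnp70 (-0.93) and Papd7, a noncanonical poly(A) polymerase gene (0.92).

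Between exons 3 of the 16 others favoured the 3′-most exon with an unadjusted p under 0.05 and 0 the upstream exon, where 10.4% and 3.63% of all pairs did so, with a median log2 change of 0.26 beside 0.17 over all pairs. Sympk encodes symplekin, the scaffold that joins CPSF and CstF. Its 3′-most exon share was 67.3%, 69.2%, 62.4%, 58.6% and 57.3% in D50A 1 to 5, against 54.7%, 51.5% and 52.5% in wild type 1 to 3. All 5 mutants lay above all 3 wild types, the 1 gene among the 16 without overlap, where 5.88% of all tested pairs did not overlap, and the log2 change was 0.61 (SE 0.244, edgeR adjusted p = 0.302). Ppp1r10, a regulatory subunit of protein phosphatase, stood at 83.9 ± 3.43% in D50A and 71.5 ± 11.6% in wild type (log2 change 1.01, SE 0.338, edgeR adjusted p = 0.282). Scaf8, an anti-termination factor, had a log2 change of 0.61 (edgeR adjusted p = 0.355), and Rbbp6, an activator of the nuclease, one of 0.94 (edgeR adjusted p = 0.378).

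In level, Rprd1a, of the same family as Rprd2, was the machinery gene with the smallest p. It measured 4.89, 5.06, 4.98, 4.92 and 5.07 log2 CPM in D50A 1 to 5, against 5.77, 5.52 and 5.20 log2 CPM in wild type 1 to 3. All mutants lay below all wild types, the 1 of 16 without overlap in that table, where 4.78% of all genes did not overlap, and D50A 5 lay with the other mutants (log2 change -0.53, SE 0.14, edgeR adjusted p = 0.327). Scaf4 had a log2 change of 0.34 in that table, and Ppp1r10 (0.41), Rprd1b (0.38) and Snrnp70 (1.11) led in the other, with edgeR adjusted p-values from 0.343 to 0.383.

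The counts carry further limits at these genes. Gene bodies in a RefSeq table of another build overlap those of Nox1 for Cstf2, Tmem216 for Cpsf7, Lnx1 for Fip1l1, the lncRNA gene Gm26944 for Pcf11 and the pseudogene Gm6665 for Wdr33, and the use of strand in counting is unknown from the sources at hand. Whether such an overlap reaches the counted sites was not examined, so it is not known whether reads of a neighbour were counted there.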

How the data were processed

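QuantSeq REV 3′ end libraries were made from total brain RNA, per the labels' protocols. Build mm9 and the tools STAR 2.5, HTSeq 0.6.0 and FastQC 0.11.3 are listed, per the submitters' processing notes, with no role. The deposited values are unnormalized read counts at each site, per the file headers and the design text, and how the authors picked sites is not stated there. Every value column was tied to a library through the code in its title, and 0 were unused. Replicate numbers only name libraries, and labels give no batch or pairing. Libraries of a genotype differed beyond sampling noise (chi-square per degree of freedom from 3.33 to 70.5 over 13 pairs in each table), and p-values set the genotype difference against the spread between animals.

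Pairs were tested with 20 or more reads per library on average and 10 or more in all at each site, which kept 7876 and 6001 pairs and all members. Fits used edgeR 4.0.16, with DESeq2 1.42.0 and limma 3.58.1 as alternatives, in R 4.3.3. Usage was fitted as the interaction of site and genotype with a term per library. Levels and single sites were fitted with TMM scaling and genotype, and values are CPM or log2 CPM with a prior count of 2. Standard errors were taken as the size of the log2 change divided by the root of the F statistic. Shares are percentages of deposited counts. The fits were tested on counts simulated independently for each site with a fixed dispersion. Those counts lack differences that a library shares over many pairs, so the simulation does not cover the spread between these libraries.

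The members, the machinery and marker lists and the tests were chosen with earlier results of these data known. Named were all members, the machinery genes of smallest p (4 per usage and 3 per level comparison) and the 3 genes with the most similar pattern per member, of which some are not reported here. Alternatives were DESeq2, limma on log2 ratios with 0.5 added, other scalings, no filter or one of 50 reads, a cerebellar marker term (mean log2 CPM) and each library left out. Sequences around the sites were not used here.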

Additional observations from a re-analysis of the deposited data

Results flagged for a closer look

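Among the 5 D50A libraries, 1 library lay far from the other mutants in 3 of the 40 member values examined with Dixon's test, and chance flags about 1 in 20 groups. The distal share of Cpsf2 was 47.3% in D50A 4, where the next mutant had 61.6% and the highest 63.4%. The 3′-most exon share of Fip1l1 was 76.8% in D50A 5, where the next mutant had 90.4% and the highest 94.9%. The proximal site of Cpsf7 stood at 32.0 CPM in D50A 5, where the next mutant had 25.4 CPM and the lowest 23.7 CPM.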

How the results depend on the processing

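Of 424 values with a library left out, 400 kept direction and side of the threshold, and of 295 under other settings 261 did. No paired analysis was possible because the labels give no shared replicate numbers. DESeq2 called 22 pairs within the exon, 5 between exons, 26 levels in the within-exon table and 28 single sites, but 0 members. With a library left out, edgeR calls over all features ranged from 0 to 1 for usage within the exon (1 without wild type 3), from 0 to 236 between exons (236 without D50A 5, 160 without wild type 3), from 0 to 68 and from 0 to 63 for levels in the within-exon and upstream-exon tables (most without D50A 5), and from 0 to 88 for single sites (88 without D50A 5, 46 without wild type 3). Members called ranged from 0 to 1 between exons, the 1 being Fip1l1, and were 0 elsewhere. With the cerebellar marker mean as a term, log2 changes turned sign within the exon for Cpsf2 (0.17), Cpsf6 (-0.39), Cstf2 (-0.026), Cpsf7 (-0.16), Rprd2 (-0.14), Pabpn1 (-0.18), Snrnp70 (0.46) and Papd7 (-0.30), and between exons for Cstf2 (0.070), Pcf11 (0.21), Wdr33 (0.36), Fip1l1 (-0.41) and Rbbp6 (-0.50). They did so in the within-exon level for Cpsf6 (-0.34), Cstf2 (0.23), Fip1l1 (-0.41), Wdr33 (0.085) and Snrnp70 (-0.93), and in the upstream-exon level for Cstf2 (0.21), Wdr33 (0.044) and Fip1l1 (-0.33). Single sites did so at the proximal sites of Cpsf2 (-0.15), Cstf2 (0.25), Fip1l1 (-0.70), Cpsf7 (0.16) and Wdr33 (0.073) and the distal sites of Pcf11 (0.29), Cpsf6 (-0.44), Fip1l1 (-0.40) and Cpsf7 (-0.16). Limma gave -0.11 for Cpsf7 between exons, library totals alone 0.068 and 0.044 for the level of Cstf2, and the stricter filter 0.00303. With a library left out, the log2 change crossed 0 for Cpsf2 within the exon (-0.40 to 0.20), between exons for Cpsf6 (-0.000987 to 0.15), Cpsf7 (-0.14 to 0.42), Pcf11 (-0.18 to 0.065) and Wdr33 (-0.31 to 0.10), in the within-exon level for Cpsf6 (-0.086 to 0.23) and Cstf2 (-0.068 to 0.044), in the upstream-exon level for Cpsf6 (-0.097 to 0.020) and Cstf2 (-0.080 to 0.051), and at the distal site of Cstf2 (-0.053 to 0.075). The cause was not tested. The marker mean nearly follows genotype, with D50A 5 the only mutant at the wild-type level. Fits with that term can therefore hardly tell genotype and cerebellar content apart. The stricter filter left Cpsf7 out between exons. Depth limits Pcf11 within the exon and the rare upstream ends of Cstf2 and Cpsf7.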
